A study of Mus musculus with 6 samples.

Results

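The genes described here are 10 cytosolic nucleic-acid sensors and their direct partners, chosen by symbol from the 36870 distinct symbols of one RNA-seq table: Ddx58, Ifih1, Dhx58, Ddx60, Zbp1, Adar, Eif2ak2, Aim2, Mavs and Tmem173. All 10 symbols were found, each in 1 row, and all 10 passed the expression minimum. The table holds 6 libraries of BMMSCs, adherent bone marrow cells of C57BL/6 mice (C57BL/6J in the methods) that are used as mesenchymal stem cells. The 3 control libraries came from cells given non-targeting siRNAs according to the sample labels, whereas the RNA-sequencing methods call them vehicle-treated. The 3 siTet1/Tet2 libraries came from cells given siRNAs against both Tet1 and Tet2, the enzymes that oxidize 5-methylcytosine. The labels give passage 2 and the methods passage 1, and neither gives the age of the donor mice or says whether the libraries of a group came from separate cultures, so the p-values measure the spread between these libraries, which may be technical. Both siRNAs and the non-targeting controls are short RNA duplexes, and no library of untreated cells was analysed here. The question asked of these genes was how their RNA levels differed between the control and the siTet1/Tet2 libraries.

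Cells detect foreign or misplaced nucleic acids in the cytosol with a small set of proteins. Ddx58 (RIG-I) and Ifih1 (MDA5) are helicases that bind viral and other unusual RNA duplexes and signal through the mitochondrial adaptor Mavs, while Tmem173 (STING) relays the signal of the DNA sensor cGAS. Both routes lead through the kinase Tbk1 and the factors Irf3 and Irf7 to type I interferon, which in turn raises the expression of many of the sensors. Zbp1 and Adar carry Z-alpha domains that bind left-handed nucleic acid, Eif2ak2 (PKR) stops translation when it binds RNA duplexes, and Aim2 assembles an inflammasome on DNA.

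Promoter sequences are shown first. Type I interferon raises the expression of many of the sensors, so a binding element of interferon-activated factors was searched for. RefSeq promoter windows on GRCm38.p6, from 250 bases before to 50 bases after a transcription start, were matched by symbol for 7 of the 10 genes, in 9 windows. Dhx58, Zbp1 and Tmem173 were not matched. The interferon-stimulated response element was searched on both strands as GAAA, any 2 bases and GAAA, and 3.44% of all 32851 windows held it. It was found in 4 of the 9 windows, those of Ddx58, Ifih1, Ddx60 and Eif2ak2, and thus in 4 of the 7 genes. The windows of Adar, Aim2 and Mavs did not hold it. A match is a description of the letters and not a site shown to be used. The matches are printed 5′ to 3′ on the strand of the gene, with the matching letters in capitals. In Ddx60 there were 2 matches, beginning 53 and 19 bases before the start, and the 100 bases before the start are given at chr8:61927987-61928086, plus strand. The other matches lay just after the start and are given with at most 10 bases on each side. They begin at base 3 of the transcript in Ddx58 (chr4:40239804-40239833, minus strand), at base 33 in Ifih1 (chr2:62646206-62646233, minus strand) and at base 19 in Eif2ak2 (chr17:78882535-78882564, minus strand). The match in Ddx58 reads on the opposite strand.
Ddx60: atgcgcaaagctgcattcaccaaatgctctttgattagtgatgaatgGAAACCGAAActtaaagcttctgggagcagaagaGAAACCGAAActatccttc
Ddx58: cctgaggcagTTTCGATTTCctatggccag
Ifih1: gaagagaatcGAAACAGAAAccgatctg
Eif2ak2: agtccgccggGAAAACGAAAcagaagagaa

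The gamma-activated site was searched on both strands as TTC, any 3 bases and GAA, and 8.3% of all windows held it. Of the 9 windows of the 7 genes, 2 held it, that of Eif2ak2 and 1 of the 3 of Adar. The Adar window with the match lies at chr3:89730468-89730767, downstream of the other 2. Since Tet enzymes act on cytosines followed by guanine, the CG dinucleotides were counted as well. The median over all windows was 7 per window. Mavs had 19, Eif2ak2 17, Ddx58 15, Ifih1 14, Ddx60 6 and Aim2 5, and the 3 windows of Adar had 6, 34 and 12. The RNA of the adaptor gene Mavs was not called lower after siTet1/Tet2 in the deposited scaling. The windows of the genes called lower ran from 5 in Aim2 to 34 in Adar, and the 19 of Mavs lay within that range. A relation between CG counts and the RNA changes was not tested. Mavs is shown with its 100 bases before the start (chr2:131233963-131234062, plus strand), in which capitals mark the 7 CG dinucleotides.
Mavs: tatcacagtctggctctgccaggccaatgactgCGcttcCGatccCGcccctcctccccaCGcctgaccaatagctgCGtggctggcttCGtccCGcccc

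Tet2, one of the targeted genes, averaged 3.45 ± 0.785 RPKM in control libraries and 0.266 ± 0.0817 RPKM in siTet1/Tet2 libraries (SD, n = 3 each). Tet1 was at most 0.098 RPKM in any library and was not tested. RPKM counts the reads of a gene in proportion to its length and to the depth of its library. The table gives no read totals, and its low values pointed to between 32400000 and 38500000 reads per library, with 50.1% to 58.2% of the values of single-transcript genes within 0.1 of a whole read where 20% would be met by chance at a depth not chosen for its match. At that estimate and with the longest annotated transcript, the fewest reads of any sensor gene were about 310, for Zbp1 in an siTet1/Tet2 library. Ddx58 and Ifih1 stand for at least 902 and 934 reads, and for these 2 genes counting error is larger than the spread between the siTet1/Tet2 libraries. The labelled cell type was compared with marker lists. The pan-leukocyte gene Ptprc was at 47.2 to 59.3 RPKM and the macrophage receptor Csf1r at 478.0 to 618.7 RPKM over the 6 libraries, whereas the stromal surface markers Thy1, Lepr and Nt5e reached at most 0.146, 0.083 and 1.02 RPKM. Other stromal surface markers were expressed, with means of 30.2 RPKM for Pdgfrb, 23.8 RPKM for Eng and 9.92 RPKM for Pdgfra in the control libraries and of 5.19, 15.6 and 0.944 RPKM after siTet1/Tet2. The collagen gene Col1a1 was at 394.2 to 654.7 RPKM in the control libraries and at 48.4 to 103.7 RPKM in the siTet1/Tet2 libraries. By flow cytometry, the paper found BMMSCs of its control and double knockout mice negative for CD45, the protein of Ptprc. It found them positive for CD90 (Thy1), CD73 (Nt5e) and CD105 (Eng). Those were proteins of other preparations, whereas the values here are RNA of the 6 libraries.

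RNA of 9 of the 10 genes was lower in the siTet1/Tet2 libraries with an adjusted p under 0.05 and that of none (0 genes) was higher in the deposited scaling, whereas relative to the stromal markers 1 gene (Zbp1) was lower and 4 (Adar, Aim2, Mavs and Tmem173) were higher. Mavs was the gene not called. The stromal markers, a list of 16 genes described further on, were lower as well, with a median log2 fold change of -2.32 over the 13 tested, and their part in the result was not tested. In bulk libraries, fewer cells of a type and less RNA per cell cannot be told apart. Groups were compared with limma on log2(RPKM + 1), on which scale every log2 fold change below is given, with Benjamini-Hochberg adjustment over the 13266 genes averaging 0.1 RPKM or more. Of all genes tested, 29.8% were called lower and 14.7% higher, 44.5% in either direction. Where a fold change over 2 with an unadjusted p under 0.05 was asked for, 7 sensor genes were lower and 0 higher, against 5.63% and 0.95% of all genes tested. The split of the called genes depends on the scaling, with 3952 lower and 1953 higher as deposited, 2931 and 2886 with median ratio scaling, 2627 and 3607 after quantile normalization, 4376 and 1525 with the same sum in each library, 4760 and 513 relative to the macrophage markers and 57 and 12859 relative to the stromal markers. The median log2 fold change of the 10 genes was -1.68, against -0.09 for all genes tested. Summed over the 10 genes, the level was 281.1, 290.6 and 290.9 RPKM in the control libraries and 85.2, 87.5 and 86.2 RPKM in the siTet1/Tet2 libraries. In each of the 9 genes called lower, every siTet1/Tet2 library was below every control library, which held for 35.9% of all genes tested. By point estimate Zbp1 changed most, followed by the helicases Ddx58, Dhx58 and Ddx60, then by Eif2ak2 and Ifih1, and then by Adar, Tmem173 and Aim2. The order among the 3 helicases and between Eif2ak2 and Ifih1 turns with the pseudocount, since at 0.1 Ddx60 was at -2.65, Ddx58 at -2.61, Ifih1 at -1.82 and Eif2ak2 at -1.78.

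**Figure D1:**
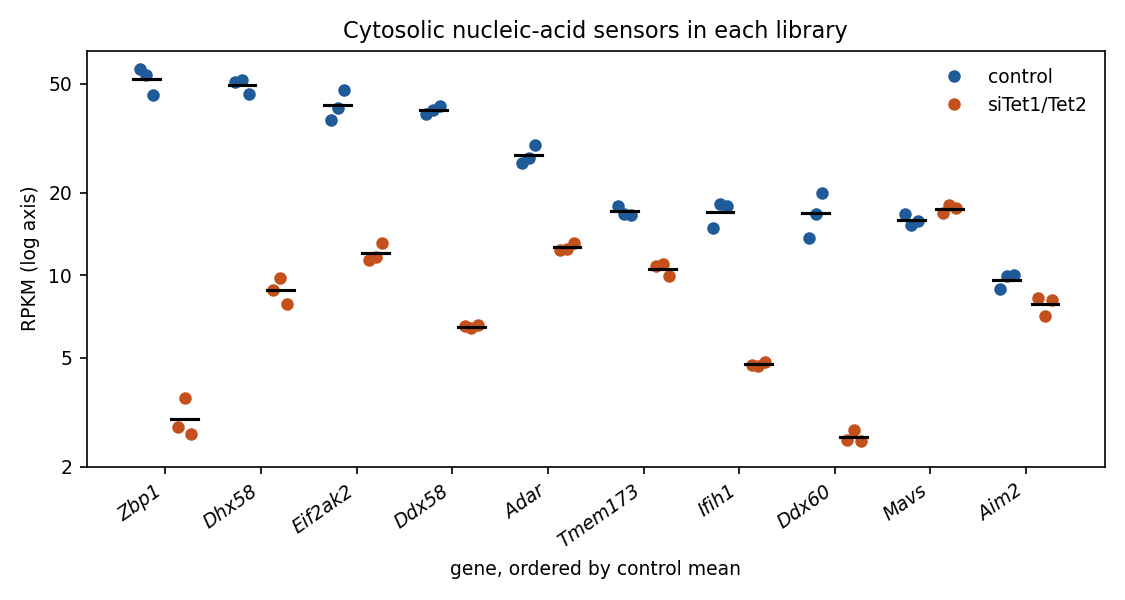
Level of each of the 10 genes in RPKM on a log axis, with 1 point for each of the 3 control (blue) and 3 siTet1/Tet2 (orange) libraries and a bar at the group mean, ordered by control mean. The 2 groups do not overlap for any gene, and Mavs alone is higher in the siTet1/Tet2 libraries in the deposited scaling. Its log2 fold change is -0.083 relative to the macrophage markers. Among all genes tested, 35.9% are lower and 19.8% higher after siTet1/Tet2 without overlap.

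**Figure D2:**
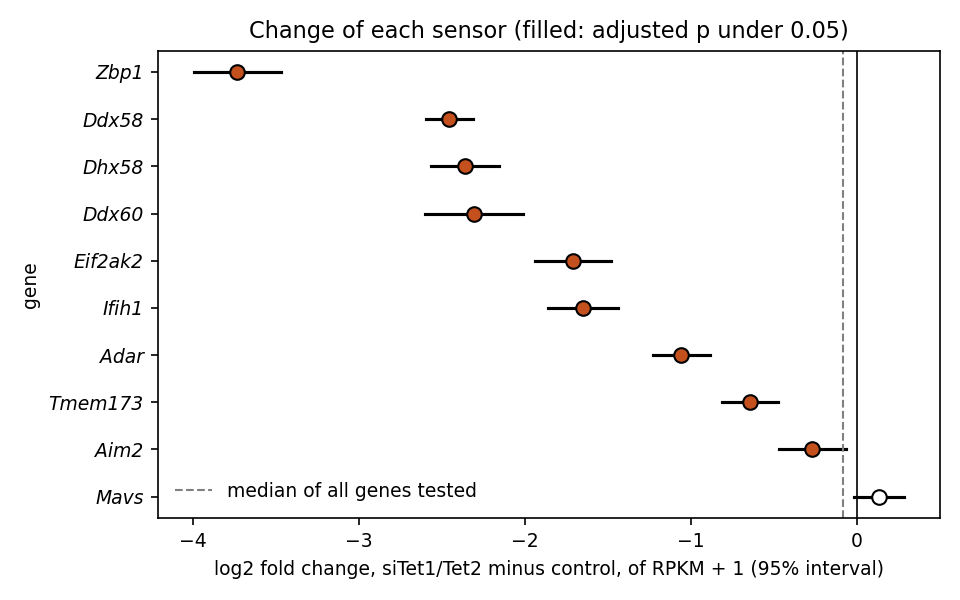
Log2 fold change of RPKM + 1, siTet1/Tet2 minus control, of each gene with its 95% interval from limma (n = 3 libraries per group), filled where the adjusted p is under 0.05, and with the median of all genes tested as a dashed line at -0.09. The point estimates run from -3.73 for Zbp1 to 0.13 for Mavs in the deposited scaling, and those of Ifih1, Eif2ak2, Adar, Tmem173 and Aim2 turn positive relative to the stromal markers.

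The RNA helicases were examined first. Ddx58, the gene of RIG-I, lies on chromosome 4 from 40203773 to 40239828 (GRCm38, GENCODE M21). The 3 control libraries held 38.8, 40.2 and 41.4 RPKM and the 3 siTet1/Tet2 libraries 6.52, 6.42 and 6.56 RPKM. The libraries of each group lay close together and far from the other group, with a 6.18-fold lower mean after siTet1/Tet2. The log2 fold change was -2.46 (SE 0.06, limma adjusted p = 3.63e-07), which ranked 83 from the lowest of the 13266 genes tested.

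Ifih1, the gene of MDA5, which prefers long RNA duplexes, lies on chromosome 2 from 62595798 to 62646255. Its level was 14.9, 18.2 and 18.0 RPKM in the control libraries, and 4.72, 4.65 and 4.81 RPKM in the siTet1/Tet2 libraries. All siTet1/Tet2 libraries were lower, by 3.61-fold on average, and control replicate 1 was the lowest of its group. On the log2 scale the change was -1.65 (SE 0.09, limma adjusted p = 7.46e-06).

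Within each library Ddx58 stood above Ifih1, and less so after siTet1/Tet2. The ratio of Ddx58 to Ifih1, which does not depend on how a library is scaled, was 2.61, 2.21 and 2.30 in the control libraries and 1.38, 1.38 and 1.36 in the siTet1/Tet2 libraries. The groups did not overlap, and the exact two-sided permutation p was 0.1, the smallest that 3 libraries against 3 allow. This ratio and 8 others were chosen after the values had been seen, and with adjustment over the 9 ratios the lowest p was 0.1125, so none of them passed.

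Dhx58, the gene of LGP2, a helicase without signalling domains that modulates the other 2 receptors, lies on chromosome 11 from 100694884 to 100704271. In the control libraries it was at 50.7, 51.8 and 45.9 RPKM and in the siTet1/Tet2 libraries at 8.86, 9.80 and 7.83 RPKM. The decrease was 5.60-fold in the means and close to that of Ddx58, with a log2 fold change of -2.36 (SE 0.09, limma adjusted p = 1.07e-06). The ratio of Dhx58 to Ddx58 overlapped between the groups, at 1.11 to 1.31 in the control libraries and 1.19 to 1.53 in the siTet1/Tet2 libraries (exact two-sided permutation p = 0.4, 3 libraries per group).

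Ddx60, a large helicase reported to assist RIG-I signalling, lies on chromosome 8 from 61928087 to 62038244. Relative to its mean, it had the most spread control values of all 10 genes, at 13.7, 16.7 and 20.1 RPKM, whereas the siTet1/Tet2 libraries were at 2.49, 2.72 and 2.49 RPKM. Even the lowest control library was well above the siTet1/Tet2 libraries, and the mean was 6.56-fold lower. The log2 fold change was -2.31 (SE 0.13, limma adjusted p = 7.33e-06).

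Zbp1, the sensor of Z-form nucleic acid that starts necroptosis through Ripk3, changed most of the 10 genes. It lies on chromosome 2 from 173206612 to 173218923. Control libraries held 56.6, 54.1 and 45.5 RPKM and siTet1/Tet2 libraries 2.80, 3.55 and 2.63 RPKM. Thus the gene with the highest mean of the 10 in the control libraries had the second lowest in the siTet1/Tet2 libraries, a 17.4-fold decrease. Its log2 fold change of -3.73 (SE 0.11, limma adjusted p = 5.65e-07) ranked 17 from the lowest of the 13266 genes tested.

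Adar, the enzyme that deaminates adenosine in RNA duplexes and the other protein of the list with a Z-alpha domain, lies on chromosome 3 from 89715022 to 89753446. In control libraries it reached 25.8, 26.8 and 29.9 RPKM, against 12.4, 12.5 and 13.2 RPKM after siTet1/Tet2. The decrease of 2.17-fold was the smallest of the RNA-binding proteins of the list, with a log2 fold change of -1.06 (SE 0.07, limma adjusted p = 2.20e-05). The table gives 1 value for the gene, and the isoforms of Adar could not be told apart. The ratio of Zbp1 to Adar went from 2.19, 2.02 and 1.52 to 0.225, 0.285 and 0.200, so that Zbp1 was above Adar in every control library and below it in every siTet1/Tet2 library.

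Eif2ak2, the gene of the kinase PKR, lies on chromosome 17 from 78852564 to 78882573. Its control libraries were at 37.1, 40.8 and 47.7 RPKM, and its siTet1/Tet2 libraries at 11.4, 11.7 and 13.1 RPKM. The groups were far apart, with a 3.47-fold lower mean and a log2 fold change of -1.71 (SE 0.10, limma adjusted p = 9.20e-06).

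Aim2, the DNA sensor of the list, lies on chromosome 1 from 173350879 to 173466040. Its level was 8.93, 9.94 and 9.98 RPKM in the control libraries, and 8.28, 7.08 and 8.13 RPKM in the siTet1/Tet2 libraries. The groups were close and did not overlap, and the mean was 1.23-fold lower. Its log2 fold change was -0.27 (95% interval -0.47 to -0.06, limma adjusted p = 0.0381). The call did not hold in 5 of the 6 fits that left out 1 library, where the adjusted p was 0.122 without control replicate 2, 0.0730 without control replicate 3, and 0.0580, 0.140 and 0.0535 without siTet1/Tet2 replicates 1, 2 and 3. Aim2 also lost it with median ratio scaling (adjusted p = 0.170), after quantile normalization (adjusted p = 0.334) and with no filter on low values (adjusted p = 0.128). Ifi204, a DNA-binding protein of the same p200 family, moved differently, from 191.1, 202.5 and 200.0 RPKM in the control libraries to 42.9, 42.2 and 47.8 RPKM. The ratio of Aim2 to Ifi204 was 0.0467 to 0.0499 in the control libraries and 0.168 to 0.193 in the siTet1/Tet2 libraries (exact two-sided permutation p = 0.1, the smallest possible with 3 per group). Near-identical p200 genes neighbour each other and reads could have been split among them.

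Of the 2 adaptors, only Tmem173 was called. Mavs, on chromosome 2 from 131234063 to 131248025, had control values of 16.7, 15.3 and 15.8 RPKM and siTet1/Tet2 values of 16.9, 18.1 and 17.6 RPKM. The siTet1/Tet2 libraries lay just above the control libraries, which was so for 19.8% of all genes tested. The log2 fold change was 0.13 (95% interval -0.02 to 0.28, limma adjusted p = 0.141), and it was called higher with median ratio scaling (0.25, adjusted p = 0.0183) and after quantile normalization (0.26, adjusted p = 0.0119), whereas it was -0.083 relative to the macrophage markers (adjusted p = 0.662). Ddx58 stood above its adaptor in the control libraries and below it in the siTet1/Tet2 libraries, with a ratio of Ddx58 to Mavs of 2.33, 2.64 and 2.63 against 0.386, 0.355 and 0.373.

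Tmem173, the gene of STING, lies on chromosome 18 from 35733679 to 35740554. Control libraries had 17.9, 16.8 and 16.6 RPKM, and siTet1/Tet2 libraries 10.8, 11.0 and 9.92 RPKM. All siTet1/Tet2 libraries were lower, by 1.62-fold in the means, with a log2 fold change of -0.64 (SE 0.07, limma adjusted p = 0.000210).

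Since RPKM is scaled by gene length, the levels of the 10 genes are set beside each other. The isoforms and the handling of multiply mapped reads are not known, so the order between genes is approximate. The overlaps below cover the spread between libraries only. In the control libraries the order of the means was Zbp1 (52.0 RPKM), Dhx58 (49.5), Eif2ak2 (41.9), Ddx58 (40.2), Adar (27.5), Tmem173 (17.1), Ifih1 (17.0), Ddx60 (16.8), Mavs (15.9) and Aim2 (9.62). The first 4 overlapped with their neighbours in this order, as did Tmem173, Ifih1, Ddx60 and Mavs, so that 3 of the 9 neighbouring pairs were separated by more than the spread of the libraries. In the siTet1/Tet2 libraries Mavs came first at 17.5 RPKM, followed by Adar (12.7), Eif2ak2 (12.1), Tmem173 (10.6), Dhx58 (8.83), Aim2 (7.83), Ddx58 (6.50), Ifih1 (4.72), Zbp1 (2.99) and Ddx60 (2.57). Here 6 of the 9 neighbouring pairs did not overlap, and Adar with Eif2ak2, Dhx58 with Aim2, and Zbp1 with Ddx60 did. Compared with all genes tested, Zbp1 went from percentile 88.5 of expression to percentile 30.5, Ddx58 from 84.6 to 44.7 and Mavs from 64.1 to 69.2.

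The cofactors and targets of the sensors were examined with 6 hand-compiled lists of 101 genes, of which 96 were expressed highly enough to be tested. Of these, 40 were called lower and 15 higher, or 41.7% and 15.6%, against 29.8% and 14.7% of all genes tested, and their median log2 fold change was -0.10, against -0.09. The split depended on the scaling, with 27 lower and 26 higher genes with median ratio scaling and 27 and 31 after quantile normalization. It was 41 and 6 with the same sum in each library and 42 and 1 relative to the macrophage markers. Relative to the stromal markers it was 1 and 90. The rises and falls of pathway genes named below are those of the deposited scaling.

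**Figure D3:**
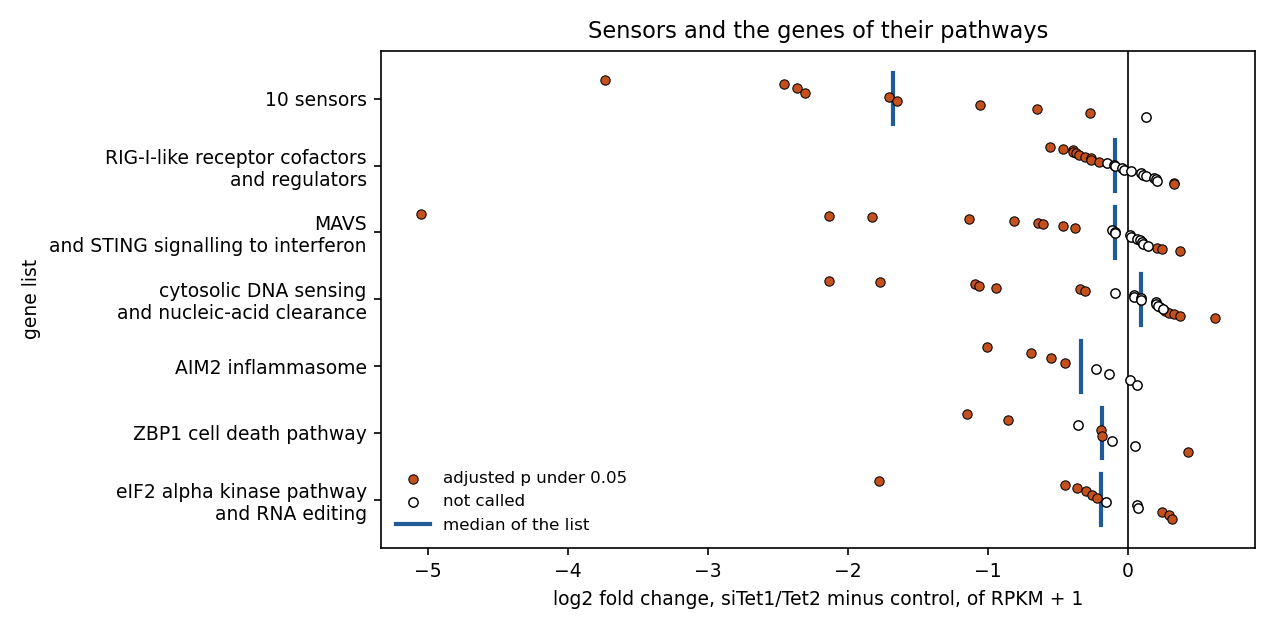
Log2 fold change of RPKM + 1, siTet1/Tet2 minus control, of the 10 sensors and of the tested genes of 6 pathway lists in the deposited scaling, with 1 point per gene (filled where the limma adjusted p is under 0.05) and a blue line at the list median. The medians of the 6 lists lie between -0.33 and 0.09, against -1.68 for the sensors.

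Of 24 tested genes that assist or restrain RIG-I-like receptors, 10 were lower (41.7%), 2 higher (8.33%) and 12 not called (median log2 fold change -0.09). Zc3hav1, an antiviral zinc-finger protein, went from 49.1 ± 4.53 RPKM to 33.0 ± 0.734 RPKM (SD, n = 3), a log2 fold change of -0.55. Trim25, the ubiquitin ligase that activates RIG-I, fell from 36.7 ± 3.07 RPKM to 26.3 ± 0.290 RPKM (limma adjusted p = 0.00107). Zcchc3 and Dhx36, which bind RNA together with the receptors, fell by 0.39 and 0.39 on the log2 scale. Trim65, a ligase of MDA5, rose 1.33-fold and Arl5b, an inhibitor of MDA5, rose 1.40-fold.

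Between the adaptors and the interferon response, 9 of 22 tested genes were lower (40.9%), 3 higher (13.6%) and 10 not called (median log2 fold change -0.09). Tbk1, the kinase shared by MAVS and STING, was at 38.8 ± 2.29 RPKM and 39.4 ± 1.71 RPKM (limma adjusted p = 0.813), and Irf3, its substrate, at 19.9 ± 2.52 RPKM and 21.1 ± 1.41 RPKM (adjusted p = 0.512). Irf7, the interferon-induced relative of Irf3, fell from 296.5, 277.9 and 241.2 RPKM to 4.29, 12.3 and 6.85 RPKM. Stat2, which carries the interferon signal to the nucleus with Irf9, fell 4.57-fold, and Irf9 fell 2.28-fold. Ifnar1, a chain of the type I interferon receptor, rose 1.31-fold, and Tradd and Ikbkg rose 1.16-fold and 1.21-fold. Of the interferon genes themselves, Ifna2 and Ifna4 were listed at the lowest value of 0.001 RPKM in all 6 libraries. Ifnb1 had control values of 0.001, 0.078 and 0.32 RPKM and siTet1/Tet2 values of 0.034, 0.001 and 0.001 RPKM, with overlapping groups, and was too low to be tested.

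On the DNA-sensing side, 7 of 22 tested genes were lower (31.8%, near the 29.8% of all genes), 6 higher (27.3%) and 9 not called (median log2 fold change 0.09). Mb21d1, the gene of cGAS, the enzyme upstream of STING, had 8.52, 9.76 and 10.5 RPKM in control libraries and 3.76, 3.73 and 4.40 RPKM in siTet1/Tet2 libraries (log2 fold change -1.09, limma adjusted p = 8.56e-05). Ifi204 fell 4.47-fold. Trex1, the exonuclease that removes cytosolic DNA, fell 3.58-fold, and Samhd1, which limits the nucleotide pool, fell 2.11-fold. Xrcc5, a DNA end-binding subunit of Ku named after its values were seen, fell 2.62-fold from a lower level of 3.48 ± 0.547 RPKM. The increases were smaller, at 1.54-fold for Rnaseh2c, a subunit of the ribonuclease that removes RNA from DNA, 1.30-fold for the lysosomal nuclease Dnase2a, 1.29-fold for Tmem203 and 1.24-fold for Enpp1, which degrades the cGAS product.

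In the list of Aim2 and other inflammasome genes, 4 of 8 tested were lower (50%) and none (0 genes) was higher (median log2 fold change -0.33). Casp4, a protease of the non-canonical inflammasome, fell 2.16-fold, Nlrp3, a different inflammasome sensor, 1.77-fold, Casp1, the protease that the inflammasome activates, 1.47-fold, and its substrate Il18 1.39-fold. Pycard, the adaptor between Aim2 and Casp1, was at 25.1 ± 4.60 RPKM and 25.2 ± 2.79 RPKM (limma adjusted p = 0.930).

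Downstream of Zbp1, 4 of 8 tested genes were lower (50%) and 1 higher (12.5%) (median log2 fold change -0.18). Mlkl, the protein that executes necroptosis, had 38.3, 35.3 and 33.0 RPKM in control libraries and 15.6, 15.0 and 15.9 RPKM after siTet1/Tet2, a 2.30-fold decrease. Ripk3, the kinase between Zbp1 and Mlkl, fell 1.88-fold, and Casp8 fell 1.14-fold. Casp6 rose 1.39-fold. Zbp1 was above Ripk3 in every control library and below it in every siTet1/Tet2 library, with a ratio of Zbp1 to Ripk3 of 2.34 to 2.60 in the control libraries and 0.219 to 0.311 in the siTet1/Tet2 libraries.

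Around Eif2ak2 and Adar, 6 of 12 tested genes were lower (50%) and 3 higher (25%) (median log2 fold change -0.19). Eif2s1, the translation factor that PKR phosphorylates, fell 1.39-fold, against 3.47-fold for Eif2ak2. Ddit3, a stress factor induced when that protein is phosphorylated, fell 3.58-fold and Atf4, its activator, 1.23-fold. Tarbp2, an inhibitor of PKR, fell 1.31-fold. The other eIF2 alpha kinases Eif2ak1 and Eif2ak3 rose 1.19-fold and 1.28-fold, and Ppp1r15a, a phosphatase subunit of the pathway, was at 8.65 ± 0.313 RPKM and 9.11 ± 0.670 RPKM (limma adjusted p = 0.543). Adarb1, the paralog of Adar, rose from 0.607 ± 0.0636 RPKM to 0.976 ± 0.0834 RPKM (SD, n = 3).

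Markers of cell types moved between the groups as well. Of 16 macrophage markers, 9 were higher and 2 lower after siTet1/Tet2, with a summed level of 8608 to 11331 RPKM in the control libraries and 16895 to 20036 RPKM in the siTet1/Tet2 libraries. Most of the difference lay in Lyz2, at 4439 RPKM and 11321 RPKM on average, and the median log2 fold change of the list was 0.24, while Ptprc was at 52.6 ± 4.57 RPKM and 53.0 ± 6.04 RPKM (limma adjusted p = 0.949). Of 16 stromal markers, 13 were tested, of which 11 were lower and none (0 genes) was higher (median log2 fold change -2.32), and with a summed level of 3744 to 4483 RPKM against 1777 to 2124 RPKM, of which Vim, not called, held 1778 and 1519 RPKM on average. Of 16 markers of other marrow cells, 11 had a mean under 0.1 RPKM, among them the T cell gene Cd3e and the neutrophil gene Ly6g. Of the 5 tested, 4 were higher and none (0 genes) was lower. Pf4, used as a platelet marker, was at 235.1 and 603.3 RPKM on average. The osteoclast genes Acp5 and Ctsk were at 3.71 and 10.4 RPKM and at 10.6 and 14.3 RPKM. Which cells carried these RNAs was not tested. The part of these markers in the result was not tested. The sensors were also expressed relative to each marker list. Relative to the median of the macrophage markers, 9 of the 10 genes were again lower with an adjusted p under 0.05. Their log2 fold changes ran from -3.95 for Zbp1 to -0.48 for Aim2. Of the 13266 genes tested, 4760 were called lower and 513 higher in this scaling. Relative to the median of the stromal markers, Zbp1 was lower (-1.70, limma adjusted p = 2.20e-07), Ddx58, Dhx58, Ddx60, Ifih1 and Eif2ak2 were between -0.42 and 0.39 and not called, and Adar (0.98), Tmem173 (1.39), Aim2 (1.77) and Mavs (2.17) were higher. Of the helicases, only Ifih1 had a positive value there. Nearly all genes were called higher relative to the stromal markers, with 12859 higher and 57 lower of the 13266 tested. Which cells of the culture carried the sensors was not tested.

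**Figure D4:**
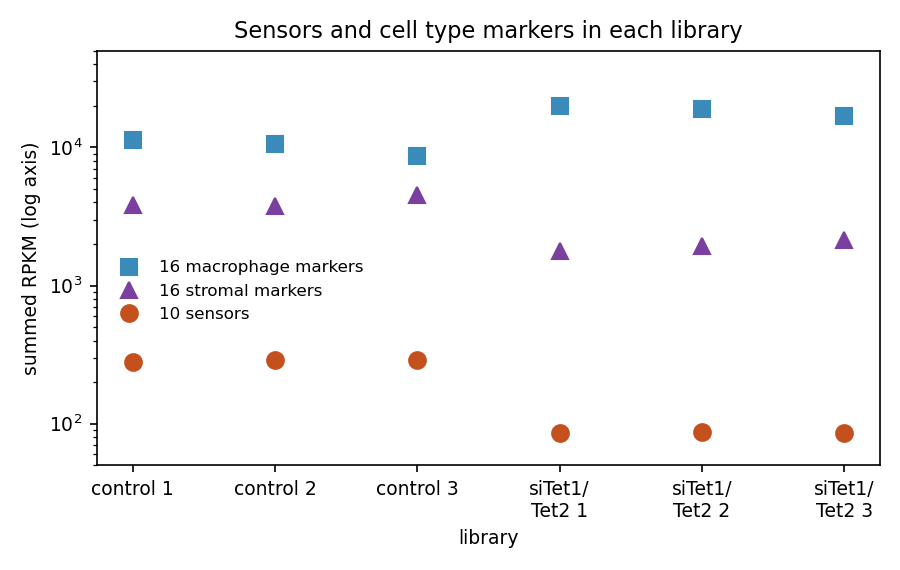
Summed RPKM of the 10 sensors (circles), of 16 macrophage markers (squares) and of 16 stromal markers (triangles) in each of the 6 libraries, on a log axis. The sensors go from 281.1 to 290.9 RPKM in the control libraries to 85.2 to 87.5 RPKM in the siTet1/Tet2 libraries, the stromal markers are also lower there, and the macrophage markers are higher.

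**Figure D5:**
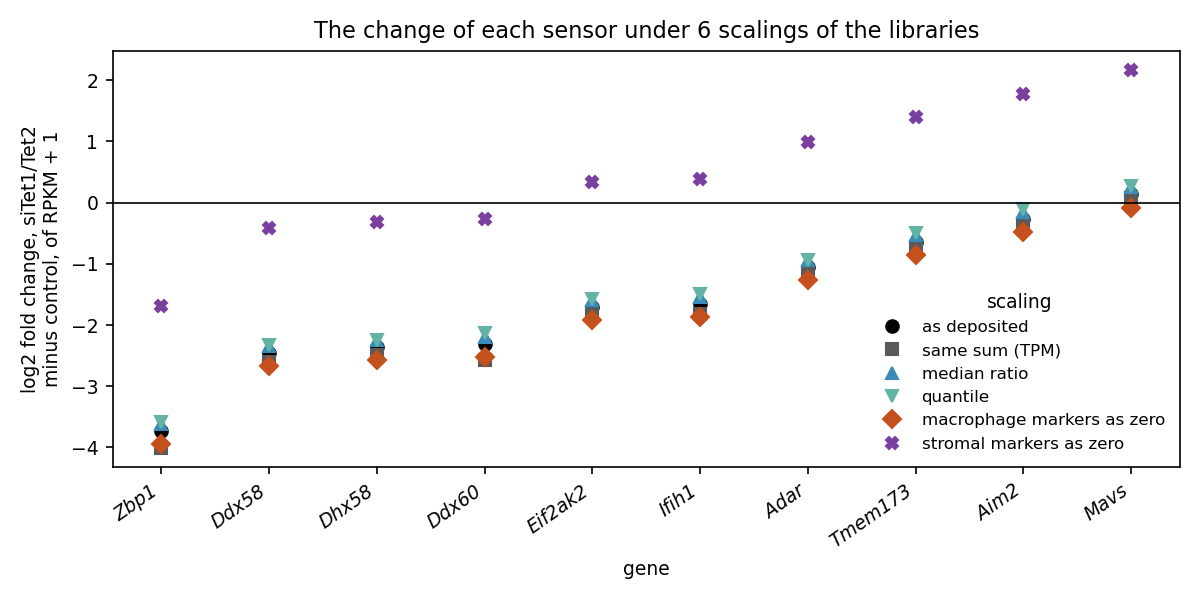
Log2 fold change of RPKM + 1, siTet1/Tet2 minus control, of each of the 10 genes under 6 scalings of the libraries, with 1 symbol per scaling. Under the 5 scalings other than the stromal one, every gene but Mavs keeps its direction. Aim2 runs from -0.48 to -0.10 among them, and Mavs from -0.083 to 0.26. With the stromal markers as zero (crosses) the values run from -1.70 for Zbp1 to 2.17 for Mavs. Those of Eif2ak2, Ifih1, Adar, Tmem173 and Aim2 turn positive there.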

How the data were processed

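Total RNA of 6 samples was sequenced (Illumina HiSeq, paired ends). After adaptor trimming, the authors used DNASTAR Lasergene for mapping to GRCm38 and for abundance. They deposited linear RPKM values per library (FPKM in the methods). Annotation release, strand setting and handling of multiply mapped reads are not given in the sources used here. A further deposited column, the authors' p-value of the group comparison, was not used. The columns that were read are 6, 1 per library, and 0 further per-sample columns were left out.

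For the 37 symbols in several rows, the highest one by mean was kept. The 13266 genes averaging 0.1 RPKM or more were compared, without a replicate block, on log2(RPKM + 1) with limma 3.58.1 (lmFit, eBayes with trend) in R 4.3.3, two-sided, with Benjamini-Hochberg adjustment and a threshold of 0.05. In simulated libraries of 13266 genes, 94 of 100 changed by 1 log2 unit and 100 of 100 changed by 2 were recovered. Of 13066 unchanged genes, 10 were called. The simulated noise was drawn independently for each gene, without a difference in library scaling. The simulation therefore does not measure false calls in the real libraries, where 44.5% of genes were called. Depth, positions and promoter matches were computed in Python 3.11.15 from GENCODE M21 and RefSeq windows (GRCm38.p6).

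The members and lists were chosen with earlier results of these data known. Text names the 10 genes, Tet1 and Tet2, up to 4 called genes per direction and pathway list by size of change, and 15 pathway genes set by role, of which some are not reported here. Marker genes and ratios were named besides.

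Both groups carry the same replicate numbers in the labels. Deviations from the group means correlated across genes with r of 0.149 (replicates 1), 0.117 (replicates 2) and 0.462 (replicates 3). All exceeded 0.1, and an alternative fit therefore took the numbers as pairs. However, control replicate 1 with siTet1/Tet2 replicate 2 reached 0.332, and control replicate 2 with siTet1/Tet2 replicate 1 reached 0.205. Both exceed the values of replicates 1 and 2 as numbered. The unlike pairs that include a replicate 3 were negative, from -0.378 to -0.242. The pairing rests on these values only. The other alternatives were pseudocounts of 0.1 and 0.01, other filters, 5 further scalings, no trend, a fold change threshold, summed duplicate symbols and each library left out in turn.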

Additional observations from a re-analysis of the deposited data

How the results depend on the processing

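Across 18 alternatives for each fold change, Zbp1 kept its direction and its adjusted p under 0.05 in all, and Ddx58, Ifih1, Dhx58, Ddx60, Adar, Eif2ak2, Tmem173 and Tet2 in 17, the exception being the centring on the stromal markers. There the log2 fold changes of Ddx58 (-0.42), Dhx58 (-0.33) and Ddx60 (-0.27) were no longer called, those of Ifih1 (0.39), Eif2ak2 (0.33) and Tet2 (0.24) turned positive without a call, those of Adar (0.98), Aim2 (1.77) and Tmem173 (1.39) turned positive with one, and Mavs was at 2.17. By construction this centring adds the fall of the stromal genes to every gene, and the median of all genes went from -0.09 to 1.95, against -0.30 with the macrophage markers as zero, -0.16 with equal sums, 0.01 by median ratio and 0.06 after quantile normalization. Genes called were then 1 lower and 4 higher of the 10, 1 lower and 90 higher of the pathway genes, and 12916 in all. Aim2 lost its call with no filter on low values (-0.27), median ratio scaling (-0.16) and quantile normalization (-0.10). Mavs became called under the same 2 scalings (0.25 and 0.26), each of which gave 1 gene of the 10 called higher, and was at -0.083 relative to the macrophage markers.

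The pathway genes called higher were 15, and 7 without a filter, 6 with equal sums, 26 by median ratio, 31 after quantile normalization and 1 relative to the macrophage markers. Where calls needed a fold change over 2 with an unadjusted p under 0.05, 11 pathway genes were lower, 0 were higher and 873 of all genes were called. All genes called numbered 3744 without a filter. The cause of these shifts was not tested. Leaving out 1 library gave 6 to 15 pathway genes called higher (9 without control replicate 2, 8 and 6 without siTet1/Tet2 replicates 1 and 2), 8 to 9 of the 10 genes called lower, 4419 to 6163 genes called in all, and a log2 fold change of -0.32 to -0.21 for Aim2.

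With the replicate block 9 of the 10 genes were lower and 0 higher, 42 pathway genes were lower and 19 higher, and 6716 genes were called in all, and it changed no call of the 10 genes or Tet2. Depth is known only as an estimate, which limits statements on Tet1 and Ifnb1.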
